A study of Mus musculus with 6 samples.

Results

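The genes described here are 10 genes of iron uptake, storage and export: the plasma carrier Trf, its receptors Tfrc and Tfr2, Hfe, the reductase Steap3, the transporters Slc11a2 and Slc40a1, the ferritin receptor Scara5, the ferritin subunit Fth1 and the hormone Hamp. They were taken as a named list, chosen with earlier results of these data known. Each of the 10 had 1 probe set annotated with its symbol alone, and all 10 were among the 14662 genes tested, out of 19550 genes with a value. The study measured RNA from the liver of male mice of the C57BL/6NCrSlc background on 6 arrays, 2 in each of 3 groups, to ask how SMP30/GNL and ascorbic acid (AA, vitamin C) act on liver transcripts. SMP30/GNL is the gluconolactonase needed for AA synthesis in mice, and its gene is Rgn. The first group held SMP30/GNL KO mice kept without AA (AA-deficient knockouts). The next group held SMP30/GNL KO mice whose drinking water contained AA, stabilised with EDTA, a metal chelator (AA-supplemented knockouts). The last group held wild-type mice given neither AA in the food nor in the water. Every group ate the same AA-free diet, the labels give no age, and they do not say whether EDTA was also added to water without AA. Supply of AA and of EDTA can therefore not be told apart.

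Iron travels in plasma bound to transferrin. Cells take it up through transferrin receptors, reduce it inside endosomes with STEAP family reductases, pass it to the cytosol through the divalent metal transporter Slc11a2, store what is not used in ferritin, and return it to plasma through ferroportin, the product of Slc40a1. The hepatocyte senses transferrin-bound iron through Tfr2 and Hfe and secretes hepcidin, the product of Hamp, which makes cells degrade ferroportin. Ascorbate is known to reduce ferric to ferrous iron.

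Values are in the deposited log units. Folds assume log10, since no source used here names the log base, and would be smaller on base 2 or e. The array values ran from -0.58 to 2.51. Group values are means ± SD (n = 2 arrays), and differences carry the standard error (SE) of a fit over all 6 arrays with limma, a linear model that shares information on the spread between genes. A gene passed at an adjusted p under 0.05, after Benjamini-Hochberg adjustment over all 14662 genes. Nothing in the labels places the 2 arrays of a group on separate animals beyond their being separate samples, so the p-values measure the spread between these samples only, which may be technical. Rgn was at 2.03 ± 0.052 in wild type, 0.24 ± 0.14 in AA-supplemented and 0.26 ± 0.049 in AA-deficient knockouts, and the deleted part of the gene is not named in the labels. Over all probe sets, arrays of one group correlated at 0.965 to 0.975, the lowest being the AA-supplemented pair. Arrays of different groups correlated at 0.945 to 0.974, so these ranges overlapped. Array medians lay between 0.350 and 0.392. The hepatocyte marker Alb (albumin) stood between 2.22 and 2.37 on the arrays, and of 9 hepatocyte markers tested 0 passed in any comparison in limma (0, 1 and 1 of them at an unadjusted p under 0.05). In bulk liver, fewer cells of a type and less RNA per cell cannot be told apart.

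In AA-deficient knockouts the ferritin receptor Scara5 was lower than in both other groups, while the endosomal reductase Steap3 and the exporter Slc40a1 were higher than in wild type. Against AA-supplemented knockouts, 1 of the 10 genes passed, Scara5, which fell. Over all genes 0.205% passed in that comparison in limma, 0.0409% as higher and 0.164% as lower, and 9.92% had an unadjusted p under 0.05, as 4 of the 10 iron genes had. Against wild type, 3 of the 10 passed (Steap3 and Slc40a1 rose, Scara5 fell). There 4.63% of all genes passed, 3.08% as higher and 1.55% as lower, and 20.4% had an unadjusted p under 0.05, as 5 of the 10 had. Between AA-supplemented knockouts and wild type 0 of the 10 passed in limma and 1 (Steap3) had an unadjusted p under 0.05. In that comparison 0.00682% of all genes passed, and 10.6% had an unadjusted p under 0.05. The 1 gene that passed was Rgn itself, which was lower (adjusted p = 8.11e-05 in limma). Transferrin, ferritin heavy chain and Hfe did not pass in any comparison.

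The 10 genes did not move one way as a group. In AA-deficient against AA-supplemented knockouts 4 were higher and 6 lower, with a median difference of -0.0083 against 3.14e-05 over all genes. Against wild type 6 were higher and 4 lower, with a median of 0.016 against -0.0034 over all genes. In AA-supplemented knockouts against wild type 8 were higher and 2 lower, with a median of 0.040 against -0.0017. Sizes without regard to sign were larger among the 10 in the comparisons of the AA-deficient group: the median absolute difference was 0.104 against AA-supplemented knockouts, where all genes had 0.041, and 0.131 against wild type, where all genes had 0.057. For AA-supplemented knockouts against wild type it was 0.040, and 0.044 over all genes. The sign of some small differences counted here turned with quantile normalisation (Tfrc, Trf and Fth1 between the knockouts, and Fth1 in AA-supplemented knockouts against wild type). Between the knockouts the groups did not overlap for 5 of the 10 genes, 3 higher and 2 lower, where 37.3% of all genes did not overlap (19.8% higher, 17.5% lower). In AA-deficient knockouts against wild type this held for 7 of the 10, 4 higher and 3 lower, against 54.5% of all genes (27.6% higher, 26.9% lower). In AA-supplemented knockouts against wild type it held for 3 of the 10, all higher, against 38.6% (19.8% higher, 18.8% lower). The comparisons share arrays and are not independent of each other. Since the list was chosen with earlier results of these data known, its sizes and shares beside those of all genes are a description only.

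**Figure D1:**
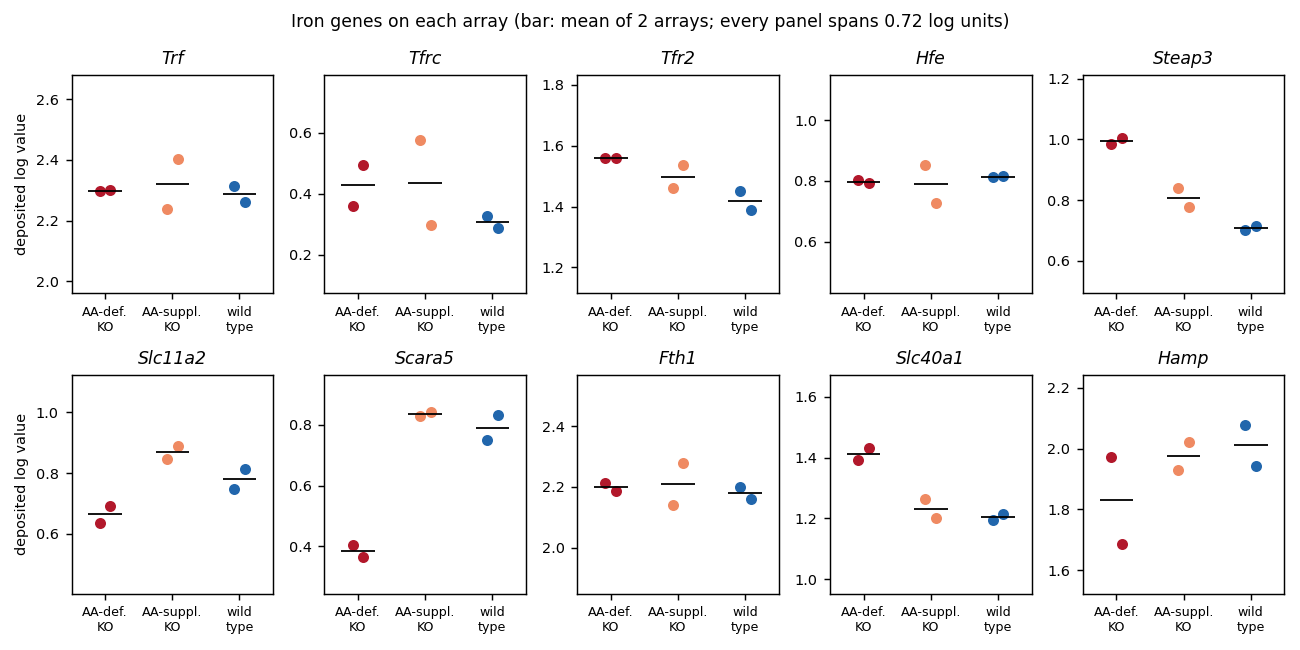
Deposited log value (vertical axis) of each iron gene on each of the 6 arrays, by group, with points for arrays and bars for the mean of 2 arrays; every panel spans the same number of log units. Scara5 lies at 0.367 and 0.405 in AA-deficient knockouts and at 0.749 or above on the other 4 arrays, whereas Steap3 and Slc40a1 are highest in AA-deficient knockouts.

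Transferrin, encoded by Trf (Entrez 22041, probe set 10596148), is the iron carrier that hepatocytes secrete into plasma. It was at 2.30 on both arrays of AA-deficient knockouts, 2.24 and 2.40 in AA-supplemented knockouts, and 2.31 and 2.26 in wild type. The AA-supplemented arrays stood on either side of all the others, so the groups overlapped. The difference between the knockouts had a 95% interval from -0.157 to 0.113 (adjusted p = 0.956 in limma). Against wild type the intervals ran from -0.123 to 0.146 in AA-deficient and from -0.101 to 0.168 in AA-supplemented knockouts, so changes up to 1.40-fold and 1.47-fold upward lie within them.

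Tfrc (Entrez 22042, probe set 10435075) encodes the transferrin receptor of most cells. Its values were low and scattered, with 0.361 and 0.496 in AA-deficient, 0.577 and 0.296 in AA-supplemented knockouts, and 0.326 and 0.288 in wild type. The AA-supplemented arrays were the highest and nearly the lowest of all 6. Tfrc was 0.12 (SE 0.088, adjusted p = 0.502 in limma) above wild type in AA-deficient and 0.13 (SE 0.088, adjusted p = 0.660) in AA-supplemented knockouts. Immature red cells also express this receptor strongly. Of 5 erythroid markers tested 0 passed in any comparison in limma, with 1 at an unadjusted p under 0.05 in each, and the summed linear level of 8 erythroid genes, on the log10 reading, was 36.8 to 41.9 in AA-deficient knockouts, 43.6 to 43.8 in AA-supplemented knockouts and 45.9 to 48.3 in wild type. Their part in the values of Tfrc, Steap3 and Slc25a37, which red cell precursors express too, was not tested.

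Tfr2 (Entrez 50765, probe set 10526630) encodes the receptor by which hepatocytes sense transferrin-bound iron. It was at 1.56 on both AA-deficient arrays, at 1.46 and 1.54 in AA-supplemented knockouts, and at 1.45 and 1.39 in wild type. The 3 groups did not overlap, with AA-deficient knockouts highest and wild type lowest. AA-deficient knockouts stood 0.14 (SE 0.046, 1.38-fold, unadjusted p = 0.0152) above wild type, which did not pass (adjusted p = 0.130 in limma). AA-supplemented knockouts stood 0.08 (SE 0.046, adjusted p = 0.594) above wild type and 0.06 below AA-deficient knockouts (adjusted p = 0.772).

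Hfe (Entrez 15216, probe set 10408227) encodes the class I-like membrane protein that takes part in iron sensing with the transferrin receptors. Its values were 0.801 and 0.794 in AA-deficient knockouts, 0.851 and 0.729 in AA-supplemented knockouts, and 0.812 and 0.815 in wild type. The AA-deficient and wild-type pairs did not overlap but lay within 0.016 of each other in the mean. The difference of AA-deficient knockouts from wild type had a 95% interval from -0.130 to 0.098 (adjusted p = 0.900 in limma).

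Steap3 (Entrez 68428, probe set 10357249) encodes the endosomal ferrireductase that turns ferric into ferrous iron after transferrin is taken up. It read 0.983 and 1.004 on the AA-deficient arrays, 0.839 and 0.776 on the AA-supplemented arrays, and 0.702 and 0.714 in wild type. The order was the same as for Tfr2, with no overlap between any groups. Steap3 rose from 0.708 ± 0.0085 in wild type to 0.994 ± 0.015 in AA-deficient knockouts, by 0.29 (SE 0.042, 1.93-fold, 95% interval 1.54 to 2.42, adjusted p = 0.0171 in limma). Against AA-supplemented knockouts the difference was 0.19 (SE 0.042, 1.54-fold, adjusted p = 0.178), and AA-supplemented knockouts were 0.10 above wild type (SE 0.042, unadjusted p = 0.0466, adjusted p = 0.466). The rise over wild type kept a size of 0.28 to 0.30 when single arrays were left out, but its adjusted p was 0.071 and 0.108 without the first and the second array of AA-deficient knockouts, and 0.148 and 0.113 without those of wild type.

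Slc11a2 (Entrez 18174, probe set 10432573), the divalent metal transporter that carries ferrous iron across the endosomal membrane, differed the other way from Steap3. Its values were 0.636 and 0.693 in AA-deficient knockouts, 0.846 and 0.890 in AA-supplemented knockouts, and 0.749 and 0.813 in wild type. AA-deficient knockouts were lowest and AA-supplemented knockouts highest, with no overlap between any groups. The difference between the knockouts was -0.20 (SE 0.045, 1.60-fold lower, unadjusted p = 0.00215) and did not pass (adjusted p = 0.176 in limma). Against wild type it was -0.12 (SE 0.045, adjusted p = 0.202) in AA-deficient and 0.09 (SE 0.045, adjusted p = 0.551) in AA-supplemented knockouts. Its adjusted p over 15 alternative settings was 0.058 to 0.595 between the knockouts.

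Scara5 (Entrez 71145, probe set 10416023), a scavenger receptor that binds ferritin and so offers a route of iron entry that needs no transferrin, had the largest difference of the 10 genes in both comparisons of AA-deficient knockouts. It was at 0.405 and 0.367 in AA-deficient knockouts, at 0.828 and 0.842 in AA-supplemented knockouts, and at 0.749 and 0.831 in wild type. Both AA-deficient arrays lay far below the other 4, which overlapped. Scara5 fell from 0.835 ± 0.0098 in AA-supplemented to 0.386 ± 0.027 in AA-deficient knockouts, 2.82-fold lower (difference -0.45, SE 0.045, adjusted p = 0.0263 in limma). Against 0.790 ± 0.058 in wild type it was 2.54-fold lower (difference -0.40, SE 0.045, adjusted p = 0.00743). AA-supplemented knockouts differed from wild type by 0.05 (SE 0.045, adjusted p = 0.780), with a 95% interval from 0.874-fold to 1.41-fold.

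The size of the Scara5 difference stayed between -0.47 and -0.43 against AA-supplemented knockouts and between -0.45 and -0.36 against wild type whichever array was left out. Its call against AA-supplemented knockouts was lost without AA-deficient array 1 (adjusted p = 0.060) or 2 (0.065), AA-supplemented array 2 (0.110) and either wild-type array (0.072 each), while it passed without AA-supplemented array 1 (0.033). Without a filter on low values its adjusted p was 0.090. Over all 15 alternatives the adjusted p between the knockouts was 0.0017 to 0.110. Against wild type it was lost without wild-type array 1 (adjusted p = 0.069) or wild-type array 2 (0.078), over a range of 7.09e-04 to 0.078. Scara5 is also expressed by fibroblasts. Of 11 stellate cell and fibroblast markers tested 0 passed in any comparison in limma (2, 3 and 2 at an unadjusted p under 0.05), 8 were higher and 3 lower between the knockouts, and the summed linear level of 12 such genes was 80.1 to 87.4 in AA-deficient knockouts, 66.8 to 85.1 in AA-supplemented knockouts and 82.6 to 93.7 in wild type. The ranges of this level overlapped between AA-deficient knockouts and each other group, and its part in the Scara5 difference was not tested.

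Fth1 (Entrez 14319, probe set 10461402) encodes the heavy chain of ferritin, which oxidises and stores iron. It was at 2.21 and 2.19 in AA-deficient knockouts, 2.14 and 2.28 in AA-supplemented knockouts, and 2.20 and 2.16 in wild type. As with Trf, the AA-supplemented arrays were the lowest and the highest of all 6. The 95% interval of the difference was -0.132 to 0.114 between the knockouts (adjusted p = 0.986 in limma) and -0.104 to 0.142 in AA-deficient knockouts against wild type (adjusted p = 0.888). The sign of the difference between the knockouts flipped with quantile normalisation for Fth1, Trf and Tfrc, so no direction is given for these. Ferritin messages are known to be controlled mainly through translation, which arrays do not measure.

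Ferroportin, the iron exporter encoded by Slc40a1 (Entrez 53945, probe set 10354374), was at 1.39 and 1.43 in AA-deficient knockouts, 1.26 and 1.20 in AA-supplemented knockouts, and 1.19 and 1.21 in wild type. The AA-deficient arrays were above the other 4, which overlapped. Slc40a1 rose from 1.20 ± 0.014 in wild type to 1.41 ± 0.027 in AA-deficient knockouts, by 0.21 (SE 0.043, 1.61-fold, 95% interval 1.28 to 2.03, adjusted p = 0.0418 in limma). The difference from AA-supplemented knockouts was 0.18 (SE 0.043, 1.51-fold, unadjusted p = 0.00332, adjusted p = 0.197). AA-supplemented knockouts differed from wild type by 0.03 (SE 0.043, adjusted p = 0.869). The rise over wild type was 0.19 to 0.23 with single arrays left out, and its call was lost without AA-deficient array 1 (adjusted p = 0.139) or 2 (0.242), wild-type array 1 (0.243) and wild-type array 2 (0.178). Without a filter on low values the adjusted p was 0.089.

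Macrophages of the liver (Kupffer cells) also carry much ferroportin. Of 12 Kupffer cell and macrophage markers 0 passed in any comparison in limma (0, 0 and 1 at an unadjusted p under 0.05). Against wild type all 12 were higher in the AA-deficient group (median 0.041). Their summed linear level was 125 to 155 in AA-deficient knockouts, 116 to 145 in AA-supplemented knockouts and 121 to 128 in wild type, so these ranges overlapped. Their part in the Slc40a1 difference was not tested.

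Hepcidin, the product of Hamp (Entrez 84506, probe set 10562169), is the hormone of iron balance. BMP and SMAD signalling is known to act on its promoter through a GGCGCC element, and STAT3, downstream of interleukin-6, through a TTCNNNGAA element. The 250 bases before the start of Hamp are shown because the genes of both pathways are described next. The sequence is RefSeq's, from mouse build GRCm38.p6, chr7:30944030-30944279, minus strand, 5′ to 3′, with matches to these motifs in capitals.
Hamp promoter: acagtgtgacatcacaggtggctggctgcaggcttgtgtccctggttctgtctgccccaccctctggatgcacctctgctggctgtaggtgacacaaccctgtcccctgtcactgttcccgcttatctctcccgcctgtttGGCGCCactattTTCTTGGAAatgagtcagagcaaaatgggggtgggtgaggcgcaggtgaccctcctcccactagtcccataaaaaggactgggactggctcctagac
The GGCGCC match begins 109 bases before the start and the TTCTTGGAA match 97 bases before it, and they do not overlap. Searched on both strands of the 250 bases before each start, GGCGCC was found in 9.59% and TTCNNNGAA in 7.02% of 32851 RefSeq windows. Of the 10 genes, 6 had windows in this table, 13 in all. Besides Hamp, GGCGCC was found in 1 of 2 windows of Tfrc, and TTCNNNGAA in no window of the other members. ACGTG, the core of the element bound by hypoxia-inducible factors, was in 2 of 3 windows of Tfr2, 1 of 2 of Tfrc and 16.6% of all windows.

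Hamp values were 1.97 and 1.69 in AA-deficient knockouts, 1.93 and 2.02 in AA-supplemented knockouts, and 2.08 and 1.94 in wild type. One AA-deficient array lay below all others and its partner among them, so the groups overlapped. The difference was -0.15 (SE 0.091, adjusted p = 0.698 in limma) against AA-supplemented knockouts and -0.18 (SE 0.091, adjusted p = 0.319) against wild type. The latter's 95% interval ran from 0.406-fold to 1.07-fold. Mice carry a close copy, Hamp2, on a probe set of its own, named here after its values were seen. Hamp2 was at 1.17 and 0.930 in AA-deficient knockouts, 0.900 and 0.920 in AA-supplemented knockouts, and 0.875 and 0.865 in wild type. Its difference from wild type in AA-deficient knockouts was 0.18 (SE 0.071, adjusted p = 0.210). How far each probe set reads the other copy is not known here.

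**Figure D2:**
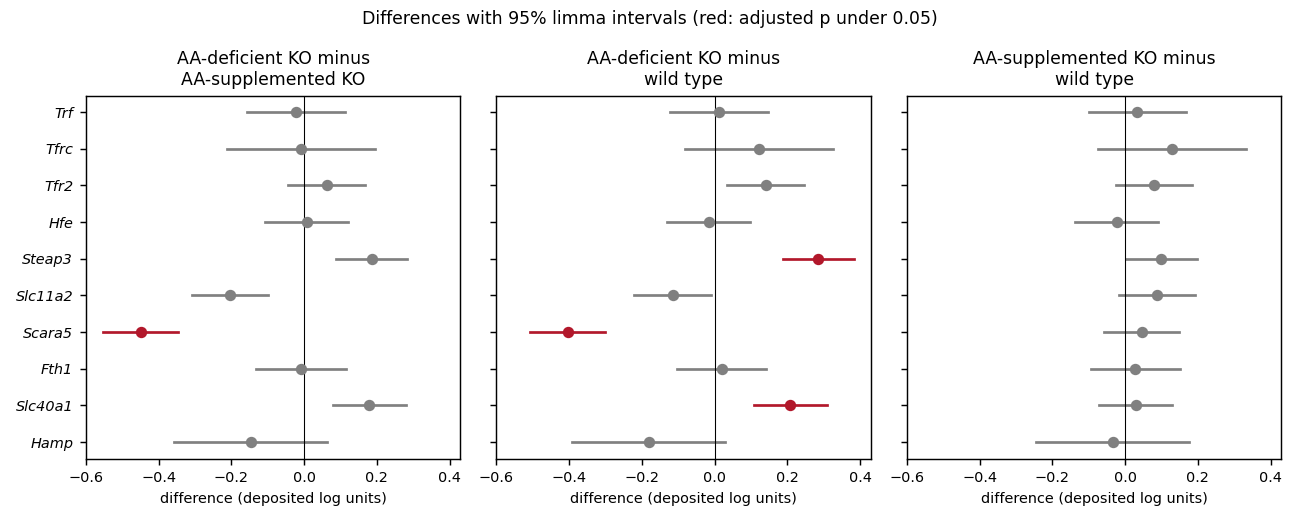
Difference between group means (horizontal axis, deposited log units) of each iron gene in the 3 comparisons, with 95% intervals from limma; red marks an adjusted p under 0.05. Scara5 is red in both comparisons of AA-deficient knockouts, Steap3 and Slc40a1 are red against wild type, and no gene is red on the right.

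Genes that set hepcidin were then read as lists. Of 17 genes of BMP and SMAD control 0 passed in any comparison in limma, with 1, 5 and 3 at an unadjusted p under 0.05 (AA-deficient against AA-supplemented, AA-deficient against wild type, and AA-supplemented against wild type). Over all genes 9.92%, 20.4% and 10.6% had such a p in the same order. The 17 genes went both ways, 9 higher and 8 lower, 10 higher and 7 lower, and 8 higher and 9 lower in that order of comparisons. The 2 described next are those of smallest p. Smad7, the inhibitory SMAD induced by BMP and SMAD signalling, was at 0.517 and 0.626 in AA-deficient knockouts against 0.390 and 0.389 in AA-supplemented knockouts and 0.401 and 0.399 in wild type. Its difference was 0.18 (SE 0.047, adjusted p = 0.226) from AA-supplemented knockouts and 0.17 (SE 0.047, adjusted p = 0.0852) from wild type. Neogenin, Neo1, a partner of hemojuvelin, was at 0.768 and 0.886 in AA-deficient knockouts, 0.742 and 0.755 in AA-supplemented knockouts, and 0.595 and 0.655 in wild type. Both knockout groups lay above wild type, by 0.20 (SE 0.051, adjusted p = 0.0661) without and 0.12 (SE 0.051, unadjusted p = 0.0424, adjusted p = 0.456) with AA. Among 6 genes of interleukin-6 and STAT3 signalling 0 passed in limma in any comparison (1, 1 and 3 at an unadjusted p under 0.05). Between the knockouts 5 of the 6 were lower and 1 higher without AA. For 4 the AA-deficient arrays were lower without overlap, against 17.5% of all genes. Relative to wild type 3 were higher and 3 lower in AA-deficient knockouts, and 6 of 6 were higher in AA-supplemented knockouts. The kinase gene Jak2 stood 0.15 (SE 0.049, adjusted p = 0.140) above wild type in AA-deficient and 0.14 (SE 0.049, adjusted p = 0.379) in AA-supplemented knockouts. The receptor gene Il6ra stood 0.09 (SE 0.049, adjusted p = 0.357) above it in AA-deficient and 0.13 (SE 0.049, adjusted p = 0.403) in AA-supplemented knockouts, and the former value was 0.033 to 0.147 with single arrays left out.

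The acute phase genes, which like Hamp respond to inflammation, had a median difference of -0.25 between the knockouts. In the mean 20 of 20 stood lower without AA, as 7328 of all 14662 genes did. For 16 of the 20 the groups did not overlap, against 17.5% of all genes that were lower without overlap. For Fga, Fgb, Fgg and Itih3 the first AA-supplemented array lay below both AA-deficient arrays. All of the 20 but Orm3 were higher on AA-supplemented array 2 than on array 1. So were the hepatocyte markers except Asgr1, for example Alb (2.37 against 2.22) and Apoa1 (2.41 against 2.21). Between the knockouts the 9 hepatocyte markers went both ways, 4 higher and 5 lower. The part of a shift of AA-supplemented array 2 in the acute phase differences was not tested. Of the 20 genes, 0 passed in limma between the knockouts, and 2 fell against wild type, where 1.55% of all genes passed as lower. Between the knockouts 13 had an unadjusted p under 0.05, against 9.92% of all genes. The serum amyloid gene Saa2 was at 1.24 and 1.74 in AA-deficient knockouts, 2.18 and 2.35 in AA-supplemented knockouts and 2.15 and 2.18 in wild type (adjusted p = 0.0404 against wild type). Lcn2, whose product lipocalin 2 binds iron-carrying siderophores, was at 0.947 and 1.13, 1.66 and 2.002, and 1.58 and 1.88 in the same order (adjusted p = 0.0316 against wild type). Against wild type the adjusted p over single arrays left out was 0.0053 to 0.220 for Saa2 and 0.018 to 0.179 for Lcn2. Both calls were lost without either wild-type array, and that of Lcn2 also without either AA-deficient array. Both were also lost without a filter on low values (adjusted p = 0.086 for Saa2 and 0.072 for Lcn2) and with trend and robust eBayes (0.136 and 0.137). Without AA-deficient array 1 the Saa2 difference was -0.43. The summed linear level of the 20 genes was 1321 to 1457 in AA-deficient knockouts, 1776 to 2702 in AA-supplemented knockouts and 1889 to 1911 in wild type. Like Scara5 and Slc11a2, this level was lowest in AA-deficient knockouts, but its AA-supplemented arrays lay on either side of wild type. Its part in the Scara5 and Slc11a2 differences was not tested.

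Metal reductases, oxidases and uptake of iron not bound to transferrin had 7 tested genes. As lower in AA-deficient knockouts, 0.164% of all genes passed against AA-supplemented knockouts and 1.55% against wild type. Of the 7 genes, 1 fell in AA-deficient knockouts against both other groups. This was Steap4, a plasma membrane metalloreductase related to Steap3, at 1.49 and 1.41 in AA-deficient knockouts, 1.94 and 2.20 in AA-supplemented knockouts and 1.93 and 1.97 in wild type (differences of -0.62, SE 0.079, adjusted p = 0.0405, and -0.50, SE 0.079, adjusted p = 0.0203 in limma). Steap4 thus differed from wild type in the direction opposite to Steap3. Without AA-supplemented array 2 the difference between the knockouts was -0.49 (adjusted p = 0.074). That call was also lost without either AA-deficient or either wild-type array, with an adjusted p up to 0.140, and without a filter on low values (0.121). The call against wild type was lost without AA-deficient array 2 (adjusted p = 0.088), wild-type array 1 (0.154) and wild-type array 2 (0.134), and without a filter (0.052). Slc39a14 (ZIP14), which imports iron not bound to transferrin into hepatocytes, was at 1.54 and 1.48 in AA-deficient knockouts, 1.70 and 1.78 in AA-supplemented knockouts and 1.68 and 1.67 in wild type. Its differences of -0.23 (SE 0.046, adjusted p = 0.132) and -0.17 (SE 0.046, adjusted p = 0.0886) did not pass.

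Of 5 further genes of ferritin and its turnover 0 passed in any comparison in limma (1, 1 and 0 at an unadjusted p under 0.05). Ncoa4, the receptor that carries ferritin to lysosomes, was at 1.51 and 1.43 in AA-deficient knockouts, 1.57 and 1.59 in AA-supplemented knockouts, and 1.65 and 1.68 in wild type. The groups followed one another without overlap, and the difference of AA-deficient knockouts from wild type was -0.19 (SE 0.044, 1.55-fold lower, adjusted p = 0.0530). The light chain gene Ftl1 was at 1.10 and 1.20 in AA-deficient knockouts, 1.21 and 1.18 in AA-supplemented knockouts, and 1.24 and 1.27 in wild type. Its difference of AA-deficient knockouts from wild type was -0.11 (SE 0.047, adjusted p = 0.255), and -0.155 to -0.058 with single arrays left out. Of 4 genes of iron regulatory proteins and their control 0 passed in limma in any comparison (0, 1 and 0 at an unadjusted p under 0.05). Aco1, which encodes the cytosolic aconitase that becomes an iron regulatory protein when it loses its cluster, was at 1.78 and 1.77 in AA-deficient knockouts, 1.68 and 1.72 in AA-supplemented knockouts, and 1.60 and 1.61 in wild type. It stood 0.17 (SE 0.040, 1.47-fold, adjusted p = 0.0583) above wild type in AA-deficient knockouts. Ireb2, the other iron regulatory protein, stood 0.07 above (SE 0.046, adjusted p = 0.430).

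**Figure D3:**
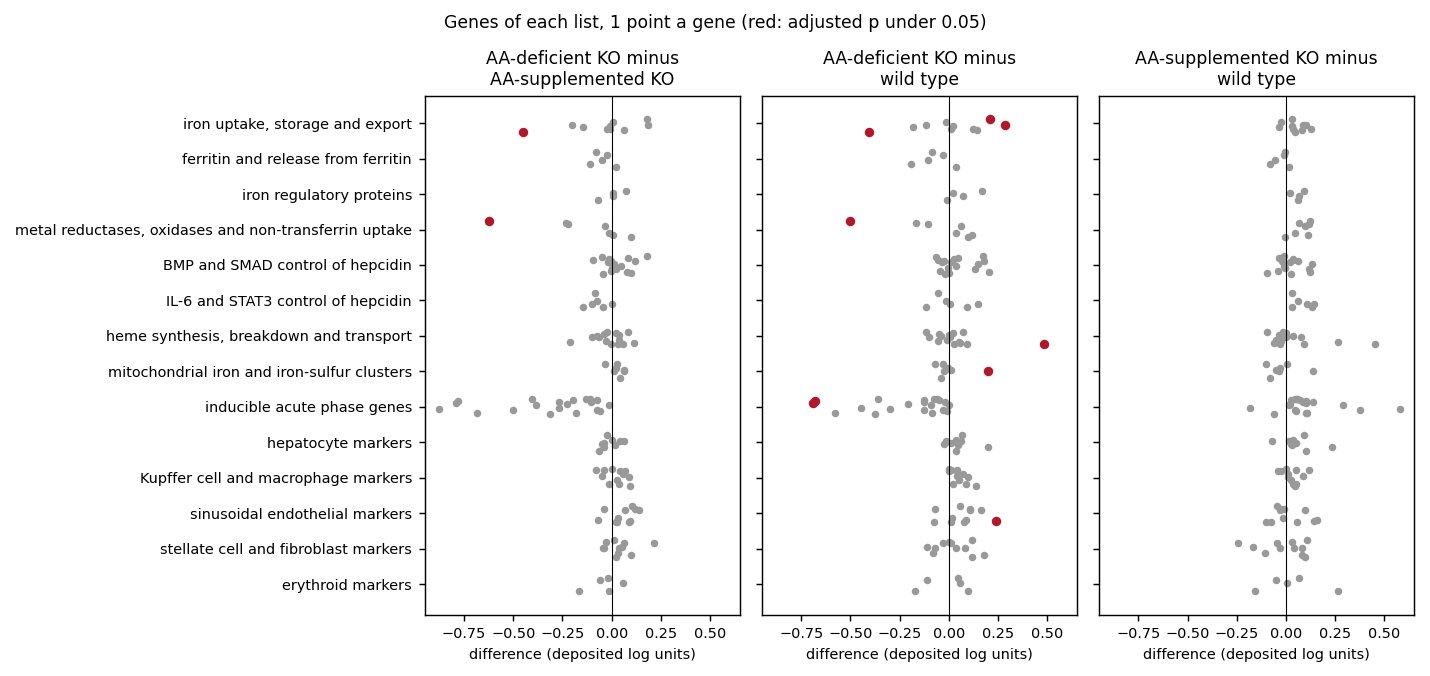
Difference (horizontal axis, deposited log units) of each tested gene of the iron, acute phase and cell marker lists in the 3 comparisons, 1 point a gene, red where the adjusted p was under 0.05. Acute phase genes lie to the left of 0 in AA-deficient against AA-supplemented knockouts for 20 of 20 members, while the 10 iron genes lie on both sides.

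In heme handling 1 of 15 tested genes rose in AA-deficient knockouts against wild type, where 3.08% of all genes passed as higher. In the other comparisons 0 of the 15 passed in limma (2 and 2 at an unadjusted p under 0.05). The gene that rose was Lrp1, the receptor that clears heme bound to hemopexin among many other ligands. It was at 1.93 and 1.94 in AA-deficient knockouts, 1.84 and 1.97 in AA-supplemented knockouts, and 1.36 and 1.55 in wild type. Lrp1 differed from wild type by 0.48 (SE 0.069, 3.05-fold, adjusted p = 0.0159) in AA-deficient and 0.45 (SE 0.069, adjusted p = 0.135) in AA-supplemented knockouts. The former call was lost without AA-deficient array 2 (adjusted p = 0.059), wild-type array 1 (0.120) or wild-type array 2 (0.064). Hmox1, heme oxygenase, which releases iron from heme, was highest in AA-supplemented knockouts, at 0.966 and 0.982, against 0.745 and 0.775 in AA-deficient knockouts and 0.691 and 0.730 in wild type. Its difference between AA-supplemented knockouts and wild type was 0.26 (SE 0.041, 1.83-fold, adjusted p = 0.135).

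Mitochondrial iron genes had 1 of 7 tested members that rose in the AA-deficient group against wild type, where 3.08% of all genes passed as higher. In the other comparisons 0 of the 7 passed in limma (0 and 1 at an unadjusted p under 0.05). Slc25a37, mitoferrin, which brings iron into mitochondria, was at 0.900 and 0.911 in AA-deficient knockouts, 0.854 and 0.833 in AA-supplemented knockouts, and 0.682 and 0.733 in wild type. It rose by 0.20 (SE 0.041, 1.58-fold, adjusted p = 0.0414) over wild type. That call was lost without either AA-deficient array (adjusted p = 0.167 and 0.226) or either wild-type array (0.253 and 0.144), and without a filter on low values (0.089). Lyrm4, of iron-sulfur cluster assembly, differed by -0.07 (SE 0.049, adjusted p = 0.483).

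Sinusoidal endothelial cells, which secrete the BMP ligands that drive hepcidin, were also followed. Of 11 markers tested 9 were higher in the AA-deficient group than in wild type, 7 of them without overlap, against 27.6% of all genes. The other 2 were lower, also without overlap, against 26.9% of all genes. Only Stab2, a scavenger receptor, passed there, where 3.08% of all genes passed as higher. Stab2 rose by 0.24 (SE 0.045, adjusted p = 0.0320 in limma). In the other comparisons 0 passed (3, 3 and 2 at an unadjusted p under 0.05 over the 3 comparisons). Between the knockouts 9 were higher without AA and 2 lower. Of these 9, 7 did not overlap, against 19.8% of all genes. With AA, Stab2 also stood above wild type, by 0.14 (SE 0.045, unadjusted p = 0.0138, adjusted p = 0.351). Stab2 is named after its values were seen, and its call was lost without either AA-deficient array (adjusted p = 0.123 and 0.186) or either wild-type array (0.218 and 0.101), and without a filter on low values (0.073). The summed linear level of the markers was 162 to 171 in AA-deficient knockouts, 150 to 151 in AA-supplemented knockouts and 156 to 163 in wild type. Their part in the differences of Steap3 and Slc40a1 was not tested. Bmp2 and Bmp6 themselves differed by 0.0022 and -0.05 from wild type in AA-deficient knockouts (adjusted p = 0.986 and 0.665 in limma). In AA-supplemented knockouts they differed from wild type by -0.098 and -0.041 (adjusted p = 0.581 and 0.820). Between the knockouts they differed by 0.10 and -0.0043 (adjusted p = 0.641 and 0.992), with Bmp2 higher without overlap in the AA-deficient group, as 19.8% of all genes were.

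The genes whose values over the 6 arrays were most like those of each called member are a description, since with 6 points shared by 3 groups many of 14662 genes come close. For Scara5 they were Poldip3 (Pearson r 0.992), Slc30a4 (0.990) and Nfkbib (0.990). For Steap3 they were Slc22a15 (0.999), Pnkd (0.998) and Hsd3b3 (0.997), and for Slc40a1 Casp6 (0.997), Hnrnpl (0.996) and Zbtb39 (0.995). No other member of the iron list was among them.

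**Figure D4:**
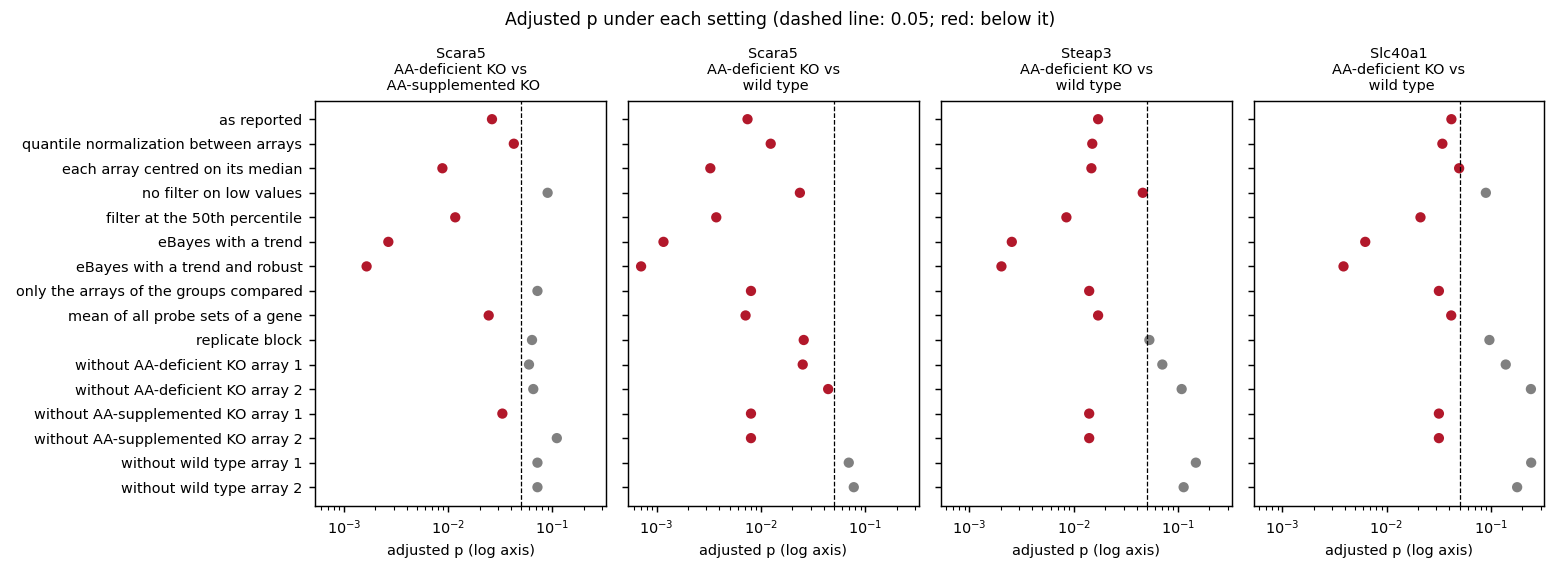
Adjusted p (horizontal log axis) of the 4 calls on Scara5, Steap3 and Slc40a1 as reported and under 15 alternative settings (rows), with a dashed line at 0.05 and red points below it. Scara5 against wild type is below the line in 13 of 15 alternatives, Steap3 in 10, Slc40a1 in 9, and Scara5 between the knockouts in 7. The 15 rows are not separate checks, since leaving out an array of the group not compared repeats the fit to the compared groups only.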

How the data were processed

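RNA of mouse liver was measured on 6 single-colour arrays, labelled with a kit for whole transcripts per the labels' protocols. The deposited values, read here as log10, come in 1 table of the authors. The background correction, summarisation, normalisation and log base stay unnamed in the labels; values near background have no detection call. The number of arrays limits the precision.

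Probe sets with 1 symbol in the platform annotation were used (21161 of 30765 with a value; 3995 of 34760 held none), the one of highest mean per gene. Genes whose mean reached the 25th percentile (0.185) entered a limma 3.58.1 fit under R 4.3.3 (eBayes without trend, all 6 arrays in 1 fit, 3 residual and 4.89 prior degrees of freedom, values as deposited), two-sided, with Benjamini-Hochberg adjustment. The fit was also run on data simulated from its own model, which cannot check how well that model holds for these arrays.

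The 10 members, the other lists and the tests were chosen with earlier results of these data known. Named genes are all members, the called genes of each other iron or acute phase list (filled up to 2 by smallest p), and the 3 genes most like each called member. The linear level of a list is the sum of 10 to the power of each value. List members below the filter (such as Heph) were not tested. Alternatives were other normalisations, filters, moderation of the spread, fits to the compared groups only, the mean over probe sets, a replicate block and leaving out each array. Pseudocounts did not apply.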

Additional observations from a re-analysis of the deposited data

Results flagged for a closer look

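Scara5 differed from wild type by -0.40 in AA-deficient and by 0.05 in AA-supplemented knockouts. The gap between these values, which is the difference between the knockouts, was -0.45 (adjusted p = 0.0263 in limma, both AA-deficient arrays below both AA-supplemented arrays). Steap4 differed from wild type by -0.50 and 0.12 in the same order, and the difference between the knockouts was -0.62 (adjusted p = 0.0405 in limma, again with both arrays lower). Both were singled out because the difference between the knockout groups with and without AA passed. Both calls were lost when 5 of the 6 arrays were left out singly. No group had the number of arrays needed to look for an outlying sample.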

How the results depend on the processing

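With 2 arrays a group, calls on iron genes were lost more often when an array was left out than with another scaling. Each fit without an array also had 2 residual degrees of freedom instead of 3. A lost call therefore does not show that it rested on the array left out. Without either wild-type array the Scara5 difference between the knockouts stayed at -0.45, and its call was still lost. Over 15 alternatives, 43 of 84 differences followed kept direction and side of the threshold, and 17 changed sign in at least 1, none of them a difference called as reported. The cause was not tested. Of the iron list, the count between the knockouts (1) was 0 without a filter on low values, 0 with only the arrays of the groups compared, 2 with a trend in eBayes and 2 with trend and robust. Leaving out arrays gave 0 to 1, and 0 to 3 for AA-deficient knockouts against wild type, where 3 passed. In AA-supplemented knockouts against wild type it was 0 in every alternative. Over all genes, the 30 calls between the knockouts became 12 with quantile normalisation, 57 with median centring, 0 without a filter, 51 with a filter at the 50th percentile, 154 with a trend, 177 with trend and robust and 0 with only the compared arrays, and 0 to 46 with an array left out. The 679 calls of AA-deficient knockouts against wild type became 173 without a filter, 1057 with the stricter filter, 1271 with a trend, 1312 with trend and robust, 1031 with only the compared arrays and 1 to 1031 with an array left out. The 1 call of AA-supplemented knockouts against wild type became 8 with median centring, 94 with a trend, 116 with trend and robust and 1 to 7 with an array left out.

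Replicate numbers were used as a replicate block. The deviations of same-numbered arrays correlated at -0.369, 0.358 and -0.284 between pairs of groups, and nothing in the labels says what a number shares, so the samples share only a number. With the block, 0 members passed between the knockouts and 1 in AA-deficient knockouts against wild type, and over all genes 4, 163 and 3 passed in the 3 comparisons.

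Quantile normalisation turned the sign between the knockouts for Tfrc (0.0071), Trf (0.0055), Fth1 (0.025) and Ireb2 (-0.0051), and of Fth1 for AA-supplemented knockouts against wild type (-0.020). Leaving out an array gave ranges that cross 0. Between the knockouts they were -0.149 to 0.133 for Tfrc, -0.104 to 0.060 for Trf, -0.078 to 0.060 for Fth1, -0.053 to 0.069 for Hfe, -0.035 to 0.049 for Ireb2, -0.034 to 0.041 for Jak2, -0.036 to 0.097 for Lrp1 and -0.019 to 0.078 for Lyrm4. For Trf in the AA-deficient group against wild type the range was -0.015 to 0.039. Between AA-supplemented knockouts and wild type they were -0.0038 to 0.061 for Slc40a1, -0.102 to 0.033 for Hamp, -0.011 to 0.270 for Tfrc, -0.049 to 0.116 for Trf, -0.041 to 0.097 for Fth1, -0.085 to 0.037 for Hfe, -0.0078 to 0.252 for Steap4 and -0.065 to 0.273 for Lcn2.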
